A study of Homo sapiens with 12 samples.

Results

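Kinesins are motor proteins that walk along microtubules, and the genes described here are the kinesin heavy chains and kinesin light chains of HepG2, an established human liver cancer line. Members were taken by symbol (KIF followed by a number and letter, KIFC1 to KIFC3, and KLC1 to KLC4), which gave 40 of the 16389 genes in the count table. The symbol rule used no measured value, but it was set with earlier results of these data known. The count table itself left out genes with a mean under 10 reads. They comprise 17 transport heavy chains, 4 light chains, 12 mitotic kinesins and 7 others. KIF2B, KIF4B, KIF6, KIF19, KIF25 and KIF26A had no row in the count table and were not analysed here. The cells were kept for 48 h in medium with 5.5 mM glucose (LG) or 20 mM glucose (HG), the latter as a model of hyperglycaemia. Cells in the same media then received 1 mM valproic acid (VPA), an antiepileptic drug and histone deacetylase inhibitor, for a further 12 h (LGV and HGV), and all groups shared basal medium with serum. Each group had 3 libraries of poly(A) RNA, and the sources used here do not say whether the untreated cells were collected before or after the 12 h of VPA. All 12 libraries came from this line alone, and nothing states that replicates were separate cultures, so the p-values measure only the spread between these libraries.

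Transport kinesins carry vesicles, organelles and protein complexes along microtubules. KIF5A, KIF5B and KIF5C are the heavy chains of conventional kinesin and bind cargo through light chains, KIF1 proteins move vesicle precursors and mitochondria, and KIF3A pairs with KIF3B or KIF3C in kinesin-II. KIF5B, KIF1B, KIF1C and KIF3B are made in most tissues, whereas KIF5A, KIF5C, KIF1A, KIF3C and KIF21B are best known from neurons. Mitotic kinesins build the spindle, move chromosomes and carry out cytokinesis, and their transcripts are normally restricted to dividing cells, with a peak in G2 and mitosis.

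The promoters of the members that carry the main differences are shown first, as 250 bases before the start of the principal annotated transcript and the first 50 bases after it. The cell cycle homology element, a short element known from promoters of G2 and mitosis genes, was searched as TTTGAA or TTCGAA, the CCAAT box as CCAAT and the GC box as GGGCGG, on both strands. Of the 12 mitotic kinesins, 10 (83.3%) held the letters of the cell cycle homology element, against 12.2% of the 15975 genes of the table with an annotated start and 5.9% of the transport kinesins (1 of 17, KIF5B). CCAAT was present in 10 mitotic promoters (83.3%) against 35.5% of all genes, and both elements in 9 (75%) against 5.1%. GC boxes were present in 17 of 17 transport promoters, 11 of 12 mitotic promoters and 66.4% of all genes. In the RefSeq promoters they were present in 10 of the 12 transport kinesins matched (83.3%) and 69.2% of genes in the table. A match describes letters in the window and is not a binding site. The following 4 mitotic promoters are shown because these genes lie among those that differed with glucose. KIF11 lies at chr10:94352637-94352936 (+ strand), KIF23 at chr15:69706438-69706737 (+ strand), KIF20B at chr10:91461097-91461396 (+ strand) and KIF20A at chr5:137514551-137514850 (+ strand), on GRCh37, and capitals mark the cell cycle homology element and the CCAAT box.
KIF11: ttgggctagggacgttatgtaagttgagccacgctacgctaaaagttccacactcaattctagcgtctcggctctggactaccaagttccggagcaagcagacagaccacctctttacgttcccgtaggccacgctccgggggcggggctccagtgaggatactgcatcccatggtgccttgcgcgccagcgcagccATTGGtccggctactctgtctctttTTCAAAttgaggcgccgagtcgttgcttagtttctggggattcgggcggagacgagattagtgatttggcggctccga
KIF23: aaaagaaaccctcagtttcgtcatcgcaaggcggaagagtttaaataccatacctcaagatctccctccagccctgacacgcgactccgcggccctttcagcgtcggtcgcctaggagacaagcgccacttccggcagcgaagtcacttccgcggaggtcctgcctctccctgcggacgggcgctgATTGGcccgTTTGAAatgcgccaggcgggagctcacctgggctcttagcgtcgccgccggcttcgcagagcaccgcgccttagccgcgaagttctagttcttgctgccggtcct
KIF20B: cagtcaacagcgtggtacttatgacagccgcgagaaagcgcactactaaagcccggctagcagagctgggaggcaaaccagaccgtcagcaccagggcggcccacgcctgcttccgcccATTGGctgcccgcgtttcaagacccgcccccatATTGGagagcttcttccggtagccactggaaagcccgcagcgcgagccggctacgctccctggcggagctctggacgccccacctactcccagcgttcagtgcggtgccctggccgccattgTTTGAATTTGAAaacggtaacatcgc
KIF20A: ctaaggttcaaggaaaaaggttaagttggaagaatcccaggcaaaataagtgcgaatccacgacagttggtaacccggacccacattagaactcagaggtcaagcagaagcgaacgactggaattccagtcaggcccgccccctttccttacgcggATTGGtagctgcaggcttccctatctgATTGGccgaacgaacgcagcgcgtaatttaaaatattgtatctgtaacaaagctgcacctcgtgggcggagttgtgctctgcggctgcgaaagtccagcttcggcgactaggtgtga

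KIF11 has the letters of the element ending 23 bases before the start, KIF23 has them ending 50 bases before it, and KIF20B has them in tandem after the start. KIF20A, which lacks them in this window, has a pair of CCAAT boxes. The next 2 promoters, with GC boxes in capitals, set KIF5C, which rose most with VPA, beside KIF5B, its paralog that did not pass the test. They lie at chr2:149632569-149632868 (+ strand) and chr10:32345304-32345603 (- strand). KIF5C holds 6 GC boxes and KIF5B holds 2. KIF21B, which also rose, holds 6, and its paralog KIF21A, which was not called, holds 5. KIF1A and KIF17, which rose, hold 1 each. Whether the number of boxes goes with the VPA differences was not tested.
KIF5C: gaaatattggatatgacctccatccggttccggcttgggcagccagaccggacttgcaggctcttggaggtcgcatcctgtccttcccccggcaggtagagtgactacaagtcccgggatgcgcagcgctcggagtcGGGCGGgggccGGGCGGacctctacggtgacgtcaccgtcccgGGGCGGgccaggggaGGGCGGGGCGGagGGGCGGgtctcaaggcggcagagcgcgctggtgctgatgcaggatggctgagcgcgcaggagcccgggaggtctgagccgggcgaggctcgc
KIF5B: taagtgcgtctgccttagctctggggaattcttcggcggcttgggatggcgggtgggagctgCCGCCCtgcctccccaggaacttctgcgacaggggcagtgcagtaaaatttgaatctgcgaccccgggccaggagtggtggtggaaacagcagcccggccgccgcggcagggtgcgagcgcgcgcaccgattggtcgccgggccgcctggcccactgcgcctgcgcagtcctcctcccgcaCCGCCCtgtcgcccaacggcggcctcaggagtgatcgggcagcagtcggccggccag

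Between 29798442 and 45572694 reads per library were counted on genes, and kinesins took 0.151% to 0.198% of them. Levels are given as CPM (counts scaled to library size with edgeR's TMM factors), and differences as log2 fold changes from the quasi-likelihood test of edgeR, called at a Benjamini-Hochberg FDR of 0.05 or less over all genes tested. Every member passed the filter on low counts in every comparison, and the lowest count of any member in any library was 7. All 10 hepatocyte markers were present, at a summed 41300 to 42400 CPM in LGV and 50600 to 67200 CPM in the other libraries. Of 12 neuron markers 3 had a row. Their summed level was 8.38 to 11.1 CPM without VPA, 25.5 to 28.7 CPM in LGV and 37.8 to 50 CPM in HGV, mostly from SYP, whereas TUBB3 stayed between 1.98 and 4.32 CPM and RBFOX3 between 0.112 and 0.714 CPM, and the part of these markers in the results was not tested. In bulk RNA, fewer cells of a kind and less RNA per cell cannot be told apart. Exons of 24 of the 40 members overlap those of another gene, and whether reads were counted by strand is not stated.

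Most transport kinesins were higher with VPA in both glucose media. Of the 17 transport heavy chains 10 rose and 2 fell in LGV against LG, where 21.7% of all genes tested were called higher and 19.9% lower. The same counts, 10 and 2, were found in HGV against HG, where 25.8% of genes were called higher and 20.2% lower. The median log2 fold change of the transport class was 0.74 and 0.72 in these comparisons, against -0.01 and 0.02 over all genes tested. Light chains had 2 higher and 1 lower of 4 in both. Among the 12 mitotic kinesins 1 fell in LGV against LG and none was called in HGV against HG, where the DESeq2 Wald test called 1 lower, KIF4A, which was also the 1 member of the class with an unadjusted p under 0.05 in edgeR. Without LG replicate 1, 4 were lower in LGV against LG, where 15.6% of all genes were. The mitotic median was -0.16 and -0.01, the latter becoming 0.11 when counts were scaled by library size only. Comparisons that have a group in common are not independent, but the LGV against LG and HGV against HG comparisons have no library in common. Between these, 15 of 17 transport kinesins had the same sign, as did 81.9% of all genes tested in both, and 12 were called in the same direction (10 higher, 2 lower). Over all 40 members Pearson's r between both sets of log2 fold changes was 0.98, a description across genes, and over 15743 genes it was 0.91.

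**Figure D1:**
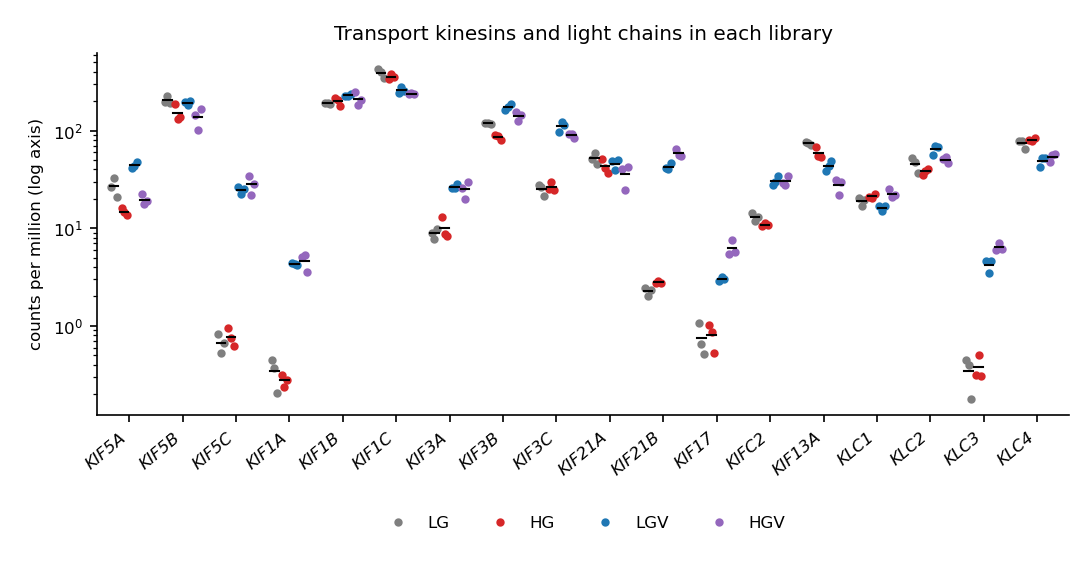
CPM on a log axis of 14 transport kinesins and the 4 light chains in each of the 12 libraries, with points for libraries and black lines for group means. KIF5C, KIF1A, KIF21B, KIF17 and KLC3 sat under 3 CPM in all LG and HG libraries and were higher in all LGV and HGV libraries, while KIF5B and KIF21A overlapped between treated and untreated groups.

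KIF5C, a conventional kinesin heavy chain known from neurons, had the largest change of any kinesin with VPA, 37.3-fold in low and 36.5-fold in high glucose. It had 0.823, 0.524 and 0.664 CPM in LG, 0.951, 0.748 and 0.616 in HG, 26.2, 22.3 and 25 in LGV and 34, 22 and 28.4 in HGV. All 6 treated libraries lay above all 6 untreated ones, and LG and HG overlapped, as did LGV and HGV. The log2 fold change was 5.22 ± 0.21 (SE, FDR 1.71e-09) in LGV against LG and 5.19 ± 0.22 (SE, FDR 1.35e-08) in HGV against HG. Of all genes tested with a mean under 1 CPM in LG, 35.9% were called higher in LGV against LG and 40.4% in HGV against HG. A log2 fold change of 3 or more was seen in 13.9% and 16.5% of them. KIF5C, KIF1A, KIF17 and KLC3 were the 4 members under 1 CPM in LG, all called higher in both, 3 of them at 3 or more. Of genes at 1 to 10 CPM in LG, 0.741% and 1.11% reached 3, as did 1 of 12 members, KIF21B. KIF5A, the other KIF5 member known from neurons, had 26.7, 32.6 and 20.9 CPM in LG, 16, 14.6 and 13.6 in HG, 41.6, 43.5 and 47.9 in LGV and 22.4, 17.8 and 18.8 in HGV. It was higher with VPA in both media, by 0.74 ± 0.15 (SE, FDR 0.00114) and 0.42 ± 0.13 (SE, FDR 0.0211) on the log2 scale, and lower in high than in low glucose in both treatments, without overlap in any of the 4 comparisons. The call in HGV against HG was lost without HG replicate 2, HG replicate 3 or HGV replicate 1. KIF5B, the widely expressed heavy chain, had 196, 226 and 191 CPM in LG, 189, 130 and 137 in HG, 198, 183 and 199 in LGV and 143, 102 and 167 in HGV. Its treated and untreated libraries overlapped in both media, with 95% intervals of the log2 fold change of -0.32 to 0.18 in low and -0.54 to 0.24 in high glucose.

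Per length of the principal transcript, the sum of the KIF5 heavy chains was made up differently with VPA. KIF5C made up 0.248 ± 0.0712% of it (SD, n = 3) in LG, 0.39 ± 0.045% in HG, 8 ± 0.41% in LGV and 13.2 ± 1.71% in HGV. The share of KIF5B was 88.2 ± 1.41% and 90.5 ± 1.16% without VPA, and 74.6 ± 0.717% and 75.5 ± 3.47% with it, so that KIF5B remained the main heavy chain in all 4 groups. In HGV the per-length levels of KIF5C and KIF5A were 4.06 ± 0.871 and 3.4 ± 0.426 CPM per kb and did not differ beyond their spread. The length used moves such shares: with the union of all exons KIF5C made up 11% in HGV and KIF5A 5.88%.

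KIF21B and KIF21A are transport kinesins that also slow microtubule growth, KIF21B being enriched in brain and spleen and KIF21A widely expressed. KIF21B had 2.47, 2.02 and 2.32 CPM in LG, 2.76, 2.9 and 2.74 in HG, 41.5, 40.1 and 46.1 in LGV and 65, 56.2 and 54.4 in HGV. The groups did not overlap in any comparison, and the log2 fold change with VPA was 4.24 ± 0.16 (SE, FDR 1.54e-09) in low and 4.38 ± 0.13 (SE, FDR 2.01e-09) in high glucose. KIF21B was also higher in HGV than in LGV, by 0.44 ± 0.12 (SE, FDR 0.00766). KIF21A had 51.7 ± 6.33 CPM (SD, n = 3) in LG, 43.0 ± 7.71 in HG, 45.9 ± 5.98 in LGV and 35.7 ± 9.69 in HGV and was not called in any comparison. Per length, KIF21B made up 2.95 ± 0.56% of the pair in LG, 4.34 ± 0.719% in HG, 38.9 ± 2.32% in LGV and 53.4 ± 7.17% in HGV. The 3 HGV libraries lay at 52.6%, 60.9% and 46.7%, on either side of an equal share. With the union of all exons as length they lay at 51.6% to 65.5%, all above it.

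In the KIF1 family the rarest member rose with VPA and an abundant paralog fell. KIF1A, the carrier of synaptic vesicle precursors, had 0.449, 0.374 and 0.204 CPM in LG, 0.317, 0.239 and 0.28 in HG, 4.41, 4.25 and 4.16 in LGV and 5.12, 5.3 and 3.53 in HGV. Treated and untreated libraries did not overlap, and the log2 fold change was 3.68 ± 0.30 (SE, FDR 3.54e-07) and 4.05 ± 0.28 (SE, FDR 2.43e-07). Its paralogs were far more abundant: KIF1B had 191, 192 and 187 CPM in LG, 216, 203 and 180 in HG, 223, 228 and 236 in LGV and 250, 181 and 205 in HGV. KIF1B was not called in any comparison, although LGV lay above LG with an FDR of 0.0523. KIF1C, which carries integrins and vesicles of the secretory pathway, had 425, 395 and 348 CPM in LG, 336, 380 and 349 in HG, 245, 280 and 252 in LGV and 238, 241 and 235 in HGV. It was lower in every treated library than in every untreated library of the same glucose, with log2 fold changes of -0.58 ± 0.12 (SE, FDR 0.00161) and -0.58 ± 0.10 (SE, FDR 0.000378). Per length, KIF1A made up 0.0554 ± 0.0168% of the KIF1 sum in LG, 0.0485 ± 0.00839% in HG, 0.864 ± 0.0565% in LGV and 1.02 ± 0.215% in HGV.

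KIF3A, the motor subunit common to both forms of kinesin-II, had 8.94, 7.84 and 9.85 CPM in LG, 13, 8.73 and 8.29 in HG, 25.5, 25.5 and 28.1 in LGV and 25.7, 20.1 and 29.4 in HGV. Its log2 fold change was 1.58 ± 0.15 (SE, FDR 1.22e-06) in low and 1.32 ± 0.19 (SE, FDR 0.000106) in high glucose, and no treated library overlapped an untreated one of the same glucose. KIF3B, its widely expressed partner, had 119, 119 and 116 CPM in LG, 89.6, 87 and 80.3 in HG, 162, 176 and 188 in LGV and 153, 126 and 144 in HGV. KIF3B rose by 0.58 ± 0.11 (SE, FDR 0.000768) and 0.72 ± 0.11 (SE, FDR 0.000142). KIF3C, the alternative partner known from neurons, had 27.7, 26.3 and 21.3 CPM in LG, 25.1, 29.5 and 24.4 in HG, 97.4, 121 and 113 in LGV and 92.4, 91.5 and 84.1 in HGV. It rose by 2.15 ± 0.13 (SE, FDR 3.84e-08) and 1.76 ± 0.11 (SE, FDR 1.49e-07), so KIF3A, KIF3B and KIF3C were all called higher with VPA in both media. The share of KIF3C in the per-length KIF3 sum was 18.5 ± 1.96% in LG, 24 ± 2.09% in HG, 38.6 ± 1.96% in LGV and 38.3 ± 3.2% in HGV.

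**Figure D2:**
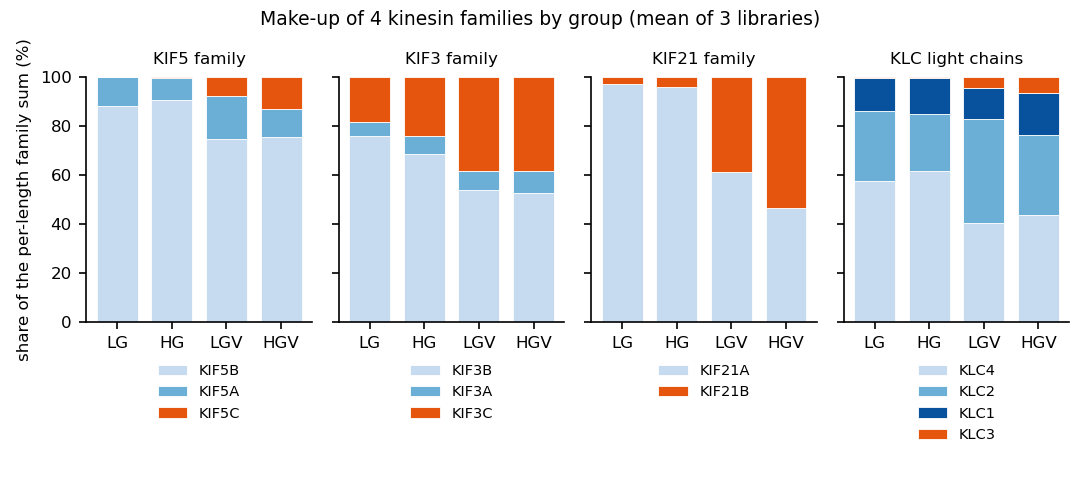
Share (%) of each paralog in the per-length sum of its family, as the mean of 3 libraries in LG, HG, LGV and HGV, with KIF5C, KIF3C, KIF21B and KLC3 in orange. Orange segments are wider in LGV and HGV than in LG and HG in all 4 families, most in the KIF21 pair.

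KIF17, a dendritic and ciliary motor, had 1.08, 0.649 and 0.511 CPM in LG, 1.01, 0.867 and 0.532 in HG, 2.85, 3.15 and 3.04 in LGV and 5.49, 7.49 and 5.76 in HGV. It rose with VPA by 2.06 ± 0.29 (SE, FDR 5.78e-05) in low and 2.96 ± 0.25 (SE, FDR 1.17e-06) in high glucose, and HGV lay above LGV without overlap, by 1.04 ± 0.19 (SE, FDR 0.000431). The difference between both VPA differences was 0.91 ± 0.39 (SE, FDR 0.38) and did not pass. KIFC2, a minus-end directed motor known from neurons, had 14.3, 11.9 and 13 CPM in LG, 10.5, 11.3 and 10.9 in HG, 27.6, 29.6 and 34.1 in LGV and 28.7, 27.9 and 34.3 in HGV and rose by 1.23 ± 0.14 (SE, FDR 7.96e-06) and 1.47 ± 0.12 (SE, FDR 1.4e-06). FOXH1 overlaps 17.8% of the exon bases of KIFC2 on the other strand. KIF16B, which carries early endosomes, had 31.4, 25.3 and 22.6 CPM in LG, 21.5, 16.7 and 18.1 in HG, 44.3, 43.5 and 51.2 in LGV and 37.4, 27.3 and 44.1 in HGV. It rose by 0.82 ± 0.14 (SE, FDR 0.000241) and 0.95 ± 0.17 (SE, FDR 0.000556), with no overlap between treated and untreated libraries of the same glucose.

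KIF13A, which carries mannose-6-phosphate receptors and recycling endosomes, went the other way. It had 75.8, 74.7 and 70.9 CPM in LG, 68.2, 54.3 and 53.5 in HG, 38.4, 43.6 and 48.3 in LGV and 31.3, 22 and 29.8 in HGV. The 6 treated libraries lay below the 6 untreated ones, with log2 fold changes of -0.75 ± 0.12 (SE, FDR 0.000137) and -1.08 ± 0.15 (SE, FDR 7.93e-05), and HGV lay below LGV, with a log2 fold change of -0.67 ± 0.14 (SE, FDR 0.00124). Its paralog KIF13B had 73.7, 74.7 and 62.8 CPM in LG, 54.5, 57.3 and 51.7 in HG, 58.1, 69.8 and 64.4 in LGV and 63.6, 52.9 and 57.7 in HGV and was not called with VPA, with intervals of -0.38 to 0.13 and -0.14 to 0.32. KIFC3, a minus-end directed motor of epithelial junctions and the Golgi, had 159, 129 and 114 CPM in LG, 82.1, 97.2 and 94 in HG, 111, 134 and 128 in LGV and 100, 96.5 and 97.8 in HGV. Its VPA differences had intervals of -0.38 to 0.19 and -0.11 to 0.33, and it was lower in high glucose.

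Among the light chains, which link KIF5 heavy chains to cargo, KLC3 had 0.449, 0.399 and 0.179 CPM in LG, 0.317, 0.508 and 0.308 in HG, 4.59, 3.51 and 4.62 in LGV and 5.95, 7.11 and 6.18 in HGV. This light chain, known from testis, rose by 3.66 ± 0.32 (SE, FDR 7.35e-07) and 4.07 ± 0.24 (SE, FDR 7.78e-08), without overlap. ERCC2, on the other strand, overlaps 14.6% of KLC3 exon bases and had log2 fold changes of -0.05 and 0.17 with VPA (FDR 0.776 and 0.197). KLC2 had 51.9, 47.9 and 36.8 CPM in LG, 35.4, 38.5 and 40.6 in HG, 56, 69 and 67.5 in LGV and 51.6, 53.7 and 46.1 in HGV and rose by 0.51 ± 0.14 (SE, FDR 0.00873) and 0.40 ± 0.11 (SE, FDR 0.00913). KLC4 had 78.5, 78.2 and 64.8 CPM in LG, 79.3, 78.3 and 84.1 in HG, 42.5, 52.1 and 52.3 in LGV and 47.9, 56.7 and 57.7 in HGV. It fell with VPA in both media, with log2 fold changes of -0.58 ± 0.13 (SE, FDR 0.00183) and -0.57 ± 0.11 (SE, FDR 0.000749), and every treated library lay below every untreated one. KLC1, the light chain best known from brain, had 20.2, 16.9 and 19.6 CPM in LG, 20.7, 20.4 and 22.4 in HG, 16.9, 14.9 and 16.7 in LGV and 25, 20.9 and 21.7 in HGV. It was not called with VPA and rose in HGV against LGV by 0.46 ± 0.13 (SE, FDR 0.0103), but XRCC3 overlaps 29.9% of its exon bases on the other strand and had a log2 fold change of 1.07 in that comparison. Per length, KLC3 went from 0.345 ± 0.118% and 0.383 ± 0.122% of the light chain sum in LG and HG to 4.69 ± 0.945% and 6.85 ± 0.425% in LGV and HGV, and KLC4 from 57.6 ± 1.28% and 61.4 ± 0.804% to 40.4 ± 1.28% and 43.7 ± 3.58%.

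Mitotic kinesins were higher in high glucose. In HG against LG 8 of the 12 mitotic kinesins were called higher and none lower (0 lower also at an unadjusted p under 0.05 in edgeR and in the DESeq2 Wald test), where 12% of all genes tested were called higher and 12.7% lower. In HGV against LGV 11 of 12 were called higher and none lower, where the shares over all genes were 21.2% and 19.5%. The mitotic median was 0.53 and 0.70, against 0.01 over all genes in both. Transport kinesins had 0 higher and 6 lower of 17 in HG against LG (median -0.24, and 0 higher at an unadjusted p under 0.05 in edgeR and in the DESeq2 Wald test), and 2 higher and 6 lower in HGV against LGV (median -0.16). No light chain was called in HG against LG, or had an unadjusted p under 0.05 in edgeR, and in HGV against LGV KLC1 and KLC3 were higher and KLC2 lower. These comparisons have no library in common. All 12 mitotic kinesins were higher in both, 8 of them called in both, and over the 40 members 36 had the same sign (80.0% of all genes did) and none was called in opposite directions (Pearson's r 0.91, a description across genes, against 0.78 over 15271 genes).

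**Figure D3:**
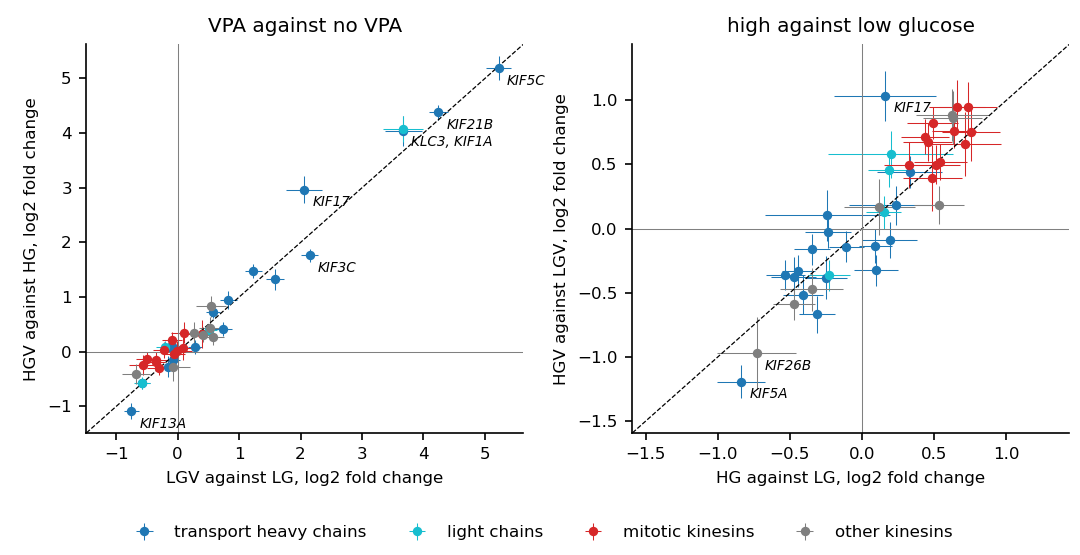
Log2 fold changes of the 40 kinesins with standard errors. The left panel sets HGV against HG over LGV against LG, the right panel HGV against LGV over HG against LG, and the dashed line marks equality. Transport kinesins (blue) spread along the line up to 5.22 on the left, and all 12 mitotic kinesins (red) lie above 0 on both axes on the right.

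The result in untreated cells rested in part on LG replicate 1, which was the lowest LG library for 12 of 12 mitotic kinesins. The same library was the highest of LG for 11 of 17 transport kinesins and 4 of 4 light chains. It had 29816124 counts against 45572694 and 40766319 in the other LG libraries, and the part of depth was not tested. The median log2 difference of the class from the LG mean was -0.30 in LG replicate 1, 0.14 and 0.23 in the other LG libraries and 0.40 to 0.71 in HG. Without LG replicate 1 all 12 remained higher in HG and the median was 0.43, but 1 mitotic kinesin was called higher, where 6.19% of all genes were. In that fit 2 transport kinesins were called lower, where 6.26% of all genes were. Without HG replicate 1, 2 or 3 the mitotic calls numbered 5, 4 and 4, where 7.95%, 8.22% and 7.26% of all genes were called higher. Without LG replicate 2 or 3 they numbered 7 and 11, where 8.25% and 17.6% of all genes were called higher. Transport kinesins called lower numbered 3 without LG replicate 2 (8.34% of all genes), 6 without LG replicate 3 (17%) and 5 without HG replicate 1 (9.42%). They numbered 3 without HG replicate 2 (9.11%) and 2 without HG replicate 3 (6.19%). Of the 17 kinesins called in HG against LG, KIF22 and KIF5A kept the call in all 6 of these fits. In VPA the class lay at -0.36, -0.33 and 0.09 in LGV and 0.36, 0.34 and 0.70 in HGV, without overlap. Over the fits of HGV against LGV that left out a library, 7 to 11 mitotic kinesins were called higher, fewest without LGV replicate 2, and the median was 0.57 to 0.85. In these fits 14.7% to 23.7% of all genes were called higher, with 15.5% in the fit without LGV replicate 2.

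**Figure D4:**
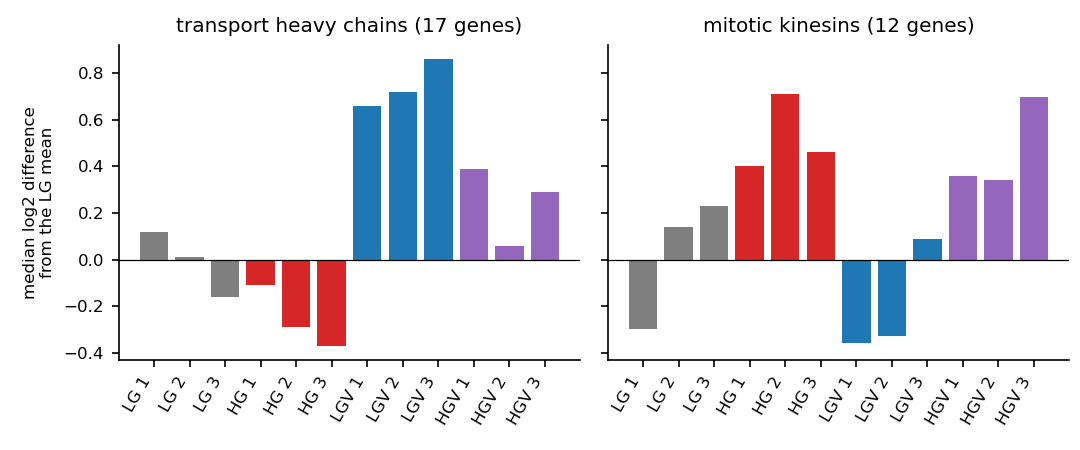
Median log2 difference from the LG mean of 17 transport heavy chains (left) and 12 mitotic kinesins (right) in each of the 12 libraries, with bars coloured by group. Transport bars are highest in the LGV libraries (0.66 to 0.86), and mitotic bars are higher in all HG and HGV libraries (0.34 to 0.71) than in all LG and LGV libraries (-0.36 to 0.23).

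KIF11, the plus-end motor that pushes spindle poles apart, had 6.96, 12.2 and 13.7 CPM in LG, 18.6, 17.9 and 17.6 in HG, 11.6, 9.87 and 13.9 in LGV and 21.5, 16.2 and 31.5 in HGV. It was higher in high glucose by 0.74 ± 0.20 (SE, FDR 0.0119) without VPA and 0.95 ± 0.20 (SE, FDR 0.000977) with VPA, and neither pair of groups overlapped. KIF15, which holds bipolar spindles together with KIF11, had 5.16, 8.08 and 8.35 CPM in LG, 12.6, 10.9 and 10.3 in HG, 4.98, 3.86 and 5.71 in LGV and 8.49, 7.58 and 12.5 in HGV. It rose by 0.66 ± 0.19 (SE, FDR 0.0193) and 0.95 ± 0.21 (SE, FDR 0.00141), also without overlap. KIF22, a chromokinesin and the most abundant mitotic member, had 40.8, 45.7 and 55.2 CPM in LG, 57.3, 82.2 and 77.4 in HG, 31.9, 35.9 and 43 in LGV and 56.4, 68 and 65.5 in HGV and rose by 0.64 ± 0.16 (SE, FDR 0.00609) and 0.76 ± 0.13 (SE, FDR 0.000233).

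Among kinesins of the central spindle and cytokinesis, KIF23, KIF20A, KIF20B and KIF4A were called higher in both comparisons and KIF14 in neither. KIF23, a subunit of centralspindlin, had 8.56, 11.1 and 12 CPM in LG, 13.9, 15 and 15.7 in HG, 9.84, 9.52 and 11 in LGV and 13.6, 13.1 and 16.8 in HGV. KIF20A, which brings the chromosomal passenger complex to the midzone, had 18.5, 25.2 and 29.7 CPM in LG, 28.5, 40.2 and 33 in HG, 16.5, 15.9 and 19.1 in LGV and 30.3, 30.9 and 31.2 in HGV. KIF20B, a motor of late cytokinesis, had 5.98, 9.56 and 10.6 CPM in LG, 17.4, 14 and 12.3 in HG, 9.45, 5.59 and 10.7 in LGV and 17.3, 10.2 and 16.6 in HGV. Of KIF23, KIF20A and KIF20B, HG and LG overlapped for KIF20A only, and HGV and LGV for KIF20B only. The log2 fold changes in HG against LG and HGV against LGV were 0.51 ± 0.17 (SE, FDR 0.0353) and 0.50 ± 0.15 (SE, FDR 0.0137) for KIF23. For KIF20A they were 0.49 ± 0.18 (SE, FDR 0.0499) and 0.82 ± 0.13 (SE, FDR 7.18e-05), and for KIF20B 0.76 ± 0.20 (SE, FDR 0.0108) and 0.75 ± 0.22 (SE, FDR 0.0111). KIF20A was also the mitotic kinesin that fell in LGV against LG, with a log2 fold change of -0.50 ± 0.17 (SE, FDR 0.0282). These groups overlapped for KIF20A, and the call was kept in 3 of the 6 fits that left out a library and 7 of 8 other alternatives. KIF4A, a chromokinesin that also sets the length of the midzone, had 18.2, 30.5 and 28.8 CPM in LG, 33.3, 43.9 and 34.2 in HG, 17, 20.3 and 25.3 in LGV and 31, 29.2 and 30.7 in HGV and rose by 0.54 ± 0.18 (SE, FDR 0.0347) and 0.52 ± 0.14 (SE, FDR 0.00713), without overlap.

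KIF18A, which damps chromosome movement at the metaphase plate, had 1.35, 1.8 and 1.74 CPM in LG, 3.39, 2.3 and 2.27 in HG, 1.89, 1.27 and 2.03 in LGV and 2.39, 2.71 and 3.23 in HGV. It rose by 0.71 ± 0.25 (SE, FDR 0.045) and 0.66 ± 0.25 (SE, FDR 0.039), without overlap. KIF2C, a microtubule depolymerase at centromeres, had 22.1, 29.1 and 31.9 CPM in LG, 30.6, 45.1 and 36.5 in HG, 19.6, 21.7 and 29.3 in LGV and 34.3, 43.3 and 36.6 in HGV. KIFC1, the minus-end motor that focuses spindle poles and clusters extra centrosomes, had 17.9, 23.6 and 23.4 CPM in LG, 24.7, 34.8 and 26.9 in HG, 18.2, 18.6 and 23.8 in LGV and 35, 30.3 and 35.6 in HGV. KIF18B, a partner of KIF2C at astral microtubule ends, had 11, 13.8 and 16.1 CPM in LG, 15.5, 17.7 and 17.2 in HG, 8.43, 9.87 and 13.3 in LGV and 15.7, 12 and 17.6 in HGV. These 3 were called in HGV against LGV, at 0.67 ± 0.15 (SE, FDR 0.00162) for KIF2C, 0.72 ± 0.14 (SE, FDR 0.000474) for KIFC1 and 0.50 ± 0.18 (SE, FDR 0.0353) for KIF18B, and their FDR in HG against LG was 0.0572, 0.0633 and 0.167. KIF14, a cytokinesis kinesin at 4.26 CPM in LG and 7.44 CPM in HGV, had log2 fold changes of 0.49 and 0.40 with intervals of 0.06 to 0.91 and -0.14 to 0.93 and was not called.

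**Figure D5:**
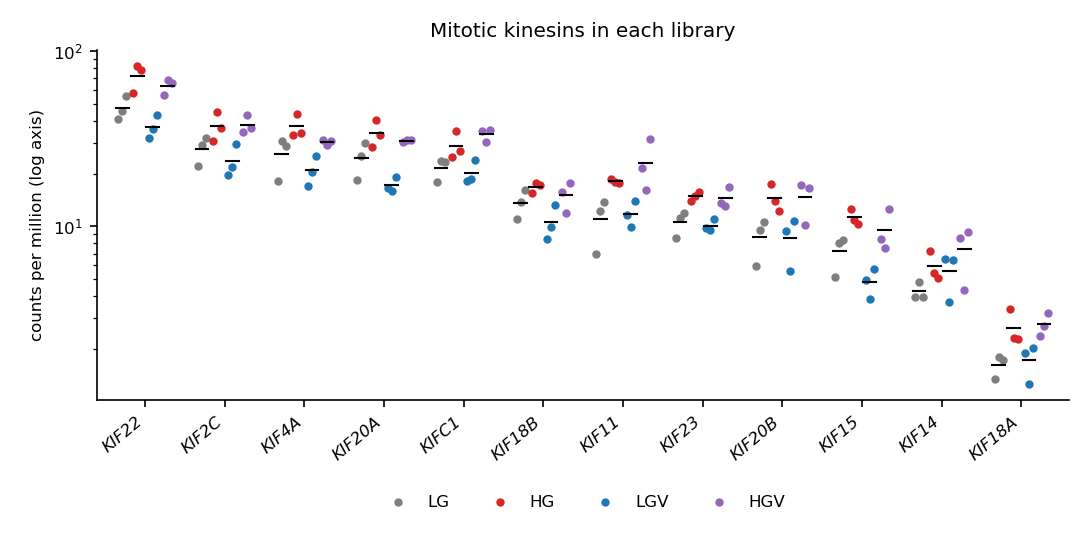
CPM on a log axis of the 12 mitotic kinesins in each library, with points for libraries and black lines for group means. The means of HG and HGV lie above those of LG and LGV for all 12 genes, and LG replicate 1, the first grey point, is the lowest of its group throughout.

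Transport kinesins that were lower in high glucose included the main heavy chain. KIF5B fell by 0.41 ± 0.14 (FDR 0.0354) in HG against LG and by 0.51 ± 0.15 (FDR 0.0114) in HGV against LGV on the log2 scale. KIF5A had the largest decrease, at -0.84 ± 0.17 (SE, FDR 0.00155) and -1.19 ± 0.13 (SE, FDR 2.86e-06). KIFC3 (-0.53 and -0.36) and KIF3B (-0.44 and -0.33) were called lower in both comparisons. KIF16B, at -0.47 ± 0.16 (SE, FDR 0.0345), and KIF13B, at -0.35 ± 0.13 (SE, FDR 0.0497), were called lower in HG against LG and not in HGV against LGV. KIF13A and KIF3C, the latter at -0.32 ± 0.12 (SE, FDR 0.0388), were called lower in HGV against LGV and not in HG against LG, and the interaction test called none of these 4. KIF5A and KIF3B were higher with VPA and lower in high glucose. Scaled by library size, 3 kinesins rather than 7 were called lower in HG against LG, and 5 rather than 10 in HGV against LGV.

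The 7 other kinesins had no common direction with glucose, where 2 were higher and 1 lower in HG against LG and 2 and 3 in HGV against LGV. With VPA 3 were higher and 1 lower in LGV against LG, KIF2A at 0.41 ± 0.11 (SE, FDR 0.00957), KIF7 at 0.58 ± 0.18 (SE, FDR 0.0151), KIF9 at 0.53 ± 0.18 (SE, FDR 0.0251) and KIF12 at -0.68 ± 0.23 (SE, FDR 0.0251), and KIF24 alone was called in HGV against HG. KIF2A, a depolymerase of interphase and spindle microtubules, had 30.9, 32.1 and 31.7 CPM in LG, 26.8, 18.9 and 21.8 in HG, 42.5, 40.6 and 41.6 in LGV and 28.3, 24.6 and 31 in HGV. It was lower in high glucose, with log2 fold changes of -0.47 ± 0.15 (SE, FDR 0.0261) and -0.59 ± 0.12 (SE, FDR 0.00108), opposite in sign to its mitotic relative KIF2C, and DIMT1 overlaps 18.7% of its exon bases on the other strand. KIF12, a kinesin of kidney and liver epithelium, had 6.28, 4.07 and 6.89 CPM in LG, 8.12, 9.42 and 8.65 in HG, 3.54, 3.28 and 3.82 in LGV and 5.34, 5.78 and 8.56 in HGV and rose by 0.63 ± 0.20 (SE, FDR 0.0307) and 0.87 ± 0.21 (SE, FDR 0.00281). KIF24, which restrains ciliary assembly, had 1.42, 1.75 and 1.86 CPM in LG, 2.95, 2.9 and 1.88 in HG, 2.28, 2.14 and 2.88 in LGV and 4.51, 4.54 and 4.68 in HGV and was called in HGV against LGV at 0.89 ± 0.20 (SE, FDR 0.00212) and in HGV against HG, where it rose by 0.83 ± 0.20 (SE, FDR 0.00424). KIF7, a ciliary regulator of hedgehog signalling, had 11, 7.66 and 10.8 CPM in LG, 14.7, 14.4 and 12.8 in HG, 13.2, 14.5 and 16.1 in LGV and 17.1, 14 and 19.3 in HGV and was called in HG against LG at 0.53 ± 0.17 (SE, FDR 0.0326), with TICRR, at a log2 fold change of 0.84 there, overlapping 10.8% of its exon bases. KIF9 had 5.12, 4.84 and 5.54 CPM in LG, 2.88, 4.61 and 4.45 in HG, 7.47, 7.34 and 7.39 in LGV and 5.03, 5.83 and 5.32 in HGV. KIF26B had 3.1, 2.02 and 1.66 CPM in LG, 1.39, 1.35 and 1.23 in HG, 1.92, 1.69 and 2.67 in LGV and 1.13, 1.31 and 0.794 in HGV. Both were called lower in HGV against LGV, with log2 fold changes of -0.47 ± 0.17 (SE, FDR 0.0298) for KIF9 and -0.97 ± 0.28 (SE, FDR 0.0104) for KIF26B. KIF27, at 1.97 to 2.66 CPM on average, was not called in any comparison.

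No kinesin passed the test of whether the VPA difference depended on glucose, where 0.0244% of all genes tested were called higher and 0.0183% lower. By unadjusted p, 2 of 40 were under 0.05, KIF17 (0.0309) and KIF3C (0.0473), and edgeR's likelihood ratio test and the DESeq2 Wald test also called 0. The 95% interval for KIF17 was 0.09 to 1.73 and that for KIF5A -0.76 to 0.13. The median over the 12 mitotic kinesins was 0.19, against 0.04 over all genes.

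Partner genes, from lists made with earlier results of these data known, are given beside the motors. Over all genes tested, 21.7% were called higher and 19.9% lower in LGV against LG, and 25.8% and 20.2% in HGV against HG. Of 25 kinesin adaptors and cargo partners 17 were called higher and 1 lower in LGV against LG, and 16 and 0 in HGV against HG (medians 0.54 and 0.58, and 0 lower at an unadjusted p under 0.05 in edgeR). HAP1, an adaptor between KIF5 and vesicles in neurons, had the largest log2 fold change in HGV against HG, 4.80 ± 0.17 (SE), from a mean of 0.770 CPM in HG to 21.6 CPM in HGV. CLSTN2, a calsyntenin of the family that binds light chains, followed at 3.25 ± 0.58, from 0.0771 CPM in HG to 0.776 CPM in HGV. Of 19 tubulins and microtubule proteins 11 rose and 1 fell in HGV against HG (median 0.92). The largest rises were those of TUBB4A (6.31 ± 0.34), a brain beta tubulin, from 0.089 to 7.4 CPM, and MAP1A (5.12 ± 0.39), from 0.113 to 3.92 CPM. TUBA8 (-1.58 ± 0.46) was lower, from 0.852 to 0.291 CPM. In the HG libraries 3 counts amounted to 0.084 to 0.0951 CPM, so CLSTN2, TUBB4A and MAP1A were near the floor there. CLSTN2, MAP7, TUBB4A, MAP1A and MAP6 did not pass the filter on low counts in HG against LG, and entered HGV against HG through their HGV counts. The counts and medians of both lists with VPA include such genes. In HG against LG, 23 adaptors and cargo partners and 16 tubulins and microtubule proteins were tested. Of 26 genes of dynein, the motor that runs the opposite way, and its cofactors 8 rose and 6 fell in LGV against LG (median 0.01), shares above those over all genes. In HGV against HG 5 rose and 3 fell (median 0.08), shares below those over all genes. In the latter comparison DCTN3 (0.79 ± 0.14) and DYNLT1 (0.64 ± 0.14) were highest and DCTN6 (-0.70 ± 0.14) and HOOK2 (-0.49 ± 0.12) lowest.

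Of 24 mitotic partners of kinesins, 12 were called higher and none lower in HG against LG (1 lower at an unadjusted p under 0.05 in edgeR), and 15 higher and 1 lower in HGV against LGV, with medians of 0.50 and 0.49, where 12% and 21.2% of all genes were called higher and 12.7% and 19.5% lower. Without LG replicate 1, 5 were higher and 1 lower in HG against LG, where 6.19% and 6.26% of all genes were. With VPA the list had 2 higher and 3 lower in LGV against LG and 2 higher and 4 lower in HGV against HG, shares below those over all genes. In the latter comparison TPX2 (0.37 ± 0.12), an activator of AURKA, and RACGAP1 (0.47 ± 0.15), the partner of KIF23 in centralspindlin, rose, and PLK1 (-0.85 ± 0.15) and CCNB2 (-0.75 ± 0.12) fell. CENPE, a kinetochore kinesin whose symbol the selection does not match, had log2 fold changes of 0.62 ± 0.24 in HG against LG and 0.52 ± 0.29 in HGV against LGV and was not called. Summed over the members, mitotic kinesins took 203 ± 38.8 CPM (SD, n = 3) in LG, 293 ± 33.3 in HG, 172 ± 27.7 in LGV and 283 ± 20.8 in HGV. Transport heavy chains took 1340 ± 92.9 CPM in LG, 1130 ± 61.1 in HG, 1470 ± 62.4 in LGV and 1250 ± 114 in HGV, so the sums, which abundant KIF1C, KIF5B and KIF1B dominate, differed less with VPA than KIF5C or KIF21B did.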

How the data were processed

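RNA was measured in 12 HepG2 libraries, 3 in each of LG, HG, LGV and HGV, grouped by their labels. The authors quality-trimmed single-end reads of 50 nt, mapped these with STAR to GRCh37 and assigned them to Ensembl genes with featureCounts. They deposited raw counts of 16389 genes, after leaving out genes with a mean under 10 reads. The library kit was directional, and the strand setting of the counting is not given in the sources used here. Counts were tested in edgeR 4.0.16 (R 4.3.3) with TMM factors and the quasi-likelihood F test, using the libraries of each comparison (all 12 for the interaction) and testing genes whose counts there averaged 10 or more. A call is an FDR of 0.05 or less over all genes tested. The script was tested on simulated data. Standard errors follow from the F statistic, and intervals are 95%.

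CPM use TMM factors. Per-length levels divide CPM by the length of the principal transcript (MANE Select, or APPRIS principal for KIF5C) in GENCODE v44 on GRCh37, and promoters were read from that genome at its start. RefSeq promoters (GRCh38.p14) were counted for comparison. They matched 12 transport, 2 light chain, 12 mitotic and 5 other kinesins, and the mitotic kinesins gave the same counts. Pairs of replicates differed by more than sampling noise (chi-square per degree of freedom 10.2 to 64.3), so none was merged.

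The members and lists were chosen with earlier results of these data known. Each library is given for members called with an absolute log2 fold change of at least 1, for members called in a glucose comparison, and for all of KIF1, KIF3, KIF5, KIFC and KLC. KIF14, KIF21A and KIF27 are given by means. Of each partner list, the 2 called genes with the largest log2 fold change in each direction in HGV against HG are named, and CENPE was named after its values were seen. Alternatives were DESeq2 size factors, library size only, the likelihood ratio test, the DESeq2 1.42.0 Wald test, omission of the filter, 1 CPM in at least 3 libraries, a replicate block, a single fit of all 12 libraries, KIF2A moved to the mitotic class, and leaving out each library. Class and list values without each library, union exon lengths and RefSeq promoters were added after seeing the data. Python 3.11.15, numpy 2.4.6, pandas 2.3.3 and matplotlib 3.10.9 were used.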

Additional observations from a re-analysis of the deposited data

How the results depend on the processing

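With 3 libraries a group, differences of the size seen between HG and LG sit close to the threshold. Of member calls, 2 of 17 in HG against LG, 16 of 20 in LGV against LG, 15 of 16 in HGV against HG and 15 of 27 in HGV against LGV were kept in every fit that left out a library, and no called value changed sign in any alternative. When each library was left out in turn, kinesins called higher numbered 1 to 14 (10 in full) and lower 2 to 8 (7 in full) in HG against LG, 13 to 15 and 3 to 7 in LGV against LG, 12 to 17 and 3 to 5 in HGV against HG, and 11 to 17 and 4 to 10 in HGV against LGV. The shares of all genes called higher and lower in these fits were 6.19% to 17.6% and 6.19% to 17% in HG against LG. They were 17.4% to 22.5% and 13.8% to 21.3% in LGV against LG, and 21.6% to 27.1% and 16% to 21.3% in HGV against HG. In HGV against LGV they were 14.7% to 23.7% and 13.2% to 20.9%. The lowest values came without LG replicate 1 for HG against LG (1 higher, 2 lower) and for HGV against LGV without LGV replicate 2 (11 higher) and without LGV replicate 3 (4 lower). With library size only, the median of all genes shifted to 0.11, 0.16, 0.15 and 0.09 in HG against LG, LGV against LG, HGV against HG and HGV against LGV, and 3, 3 and 5 kinesins were called lower in HG against LG, LGV against LG and HGV against LGV. The DESeq2 Wald test called 5 lower in HGV against HG. The medians of the transport and mitotic classes moved by less than the spread between replicates with library size only and with DESeq2 size factors. The same held with KIF2A in the mitotic class and when a library was left out of a pairwise comparison. Class medians were not compared in the other alternatives. With the union of exons as length, the share of KIF5C in HGV was 11% in place of 13.2%. In HGV it was 58.2% in place of 53.4% for KIF21B and 34.4% in place of 38.3% for KIF3C. For KIF1A it was 0.663% in place of 1.02%, and for KLC3 8.52% in place of 6.85%. Deviations of libraries with the same number had correlations across genes of -0.288 to 0 in HG against LG and -0.268 to 0.449 in LGV against LG. These were -0.272 to 0.344 in HGV against HG and -0.018 to 0.297 in HGV against LGV. Their mean was -0.16 in HG against LG and 0.07 to 0.12 in the others, against 0.08 and -0.07 to -0.04 for libraries with different numbers. A replicate block called 13, 22, 19 and 29 kinesins in the 4 pairwise comparisons in place of 17, 20, 16 and 27, and 8 higher and 5 lower in HG against LG. Why these counts move was not tested.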
